A study of Mus musculus with 29 samples.

Results

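The genes followed here are 10 of the 22187 gene IDs in the deposited table: Cacna1b, Kif5c, Adcy1, Hid1, Gldn, Igdcc4, Tubb2b, Lrrc4, Vmn2r3 and Wnk4. They were picked by name, after earlier results of the same libraries were known, as neuronal-type genes with higher levels in tumours than in non-tumour liver. The choice used the differences between tumour and non-tumour liver and between genotype labels in HFD tumours, so those differences are described below with no test. All other comparisons were tested, but those between diets in tumours reuse the HFD tumour libraries on which the genes were chosen. The libraries came from livers of C57BL/6 mice that had all received the liver carcinogen DEN (diethylnitrosamine) at 25 mg/kg at 2 weeks of age and were then fed for 18 weeks. Tumours gave 4 libraries labelled IL17RA-/- on alcohol (HFD_alcohol in the labels), 3 labelled IL17RA-/- on HFD, 3 WT on alcohol and 3 WT on HFD. Non-tumour liver gave 5, 3, 5 and 3 libraries of the same groups in the same order. The diets are given as the sample labels name them, since the series' design text instead describes ethanol in a liquid diet with pair-fed controls. IL17RA is a receptor subunit for the cytokine IL-17A.

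Neurons use a set of proteins that hepatocytes barely need. N-type calcium channels admit calcium at nerve terminals, kinesin motors carry cargo along axonal microtubules, dense core vesicles store peptides, and adhesion molecules hold synapses and nodes of Ranvier in place. In most non-neuronal tissues many such genes are held silent, in part by the repressor REST. The 10 genes are not all neuronal by this background: Gldn is best known from Schwann cells, Wnk4 from the distal kidney tubule, and Igdcc4 (also called Nope) also as a surface protein of fetal mouse liver cells. Liver tumours often re-express fetal genes, of which Afp and Gpc3 are standard markers.

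Promoter windows were available for 8 of the 10 genes (RefSeq, GRCm38.p6, 250 bases before to 50 after the start). The windows of Kif5c and Igdcc4, with the largest mean tumour difference, and of Vmn2r3, the poorest in CpG, are shown to set CpG-rich and CpG-poor starts side by side. Capitals mark every match, on either strand, to the GC box GGGCGG, to the cyclic AMP response element TGACGTCA and to the HNF1 half-site GTTAAT. No match of these 3 motifs overlapped another in the windows shown. The RefSeq start used for Vmn2r3 lies downstream of the gene start given below from GENCODE.
Kif5c (chr2:49619036-49619335, plus strand): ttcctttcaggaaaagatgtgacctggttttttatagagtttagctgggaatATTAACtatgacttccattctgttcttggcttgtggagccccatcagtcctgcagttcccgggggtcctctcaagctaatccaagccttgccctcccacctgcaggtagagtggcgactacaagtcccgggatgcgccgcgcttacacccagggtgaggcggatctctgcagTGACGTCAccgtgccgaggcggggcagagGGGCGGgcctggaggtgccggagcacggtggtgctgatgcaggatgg
Igdcc4 (chr9:65101236-65101535, plus strand): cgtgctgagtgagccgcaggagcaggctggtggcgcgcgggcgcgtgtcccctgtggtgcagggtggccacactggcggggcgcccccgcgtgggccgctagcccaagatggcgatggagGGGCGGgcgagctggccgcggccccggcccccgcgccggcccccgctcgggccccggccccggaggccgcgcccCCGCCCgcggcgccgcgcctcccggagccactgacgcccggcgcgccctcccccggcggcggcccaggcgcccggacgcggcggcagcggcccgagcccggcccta
Vmn2r3 (chr3:64287368-64287667, minus strand): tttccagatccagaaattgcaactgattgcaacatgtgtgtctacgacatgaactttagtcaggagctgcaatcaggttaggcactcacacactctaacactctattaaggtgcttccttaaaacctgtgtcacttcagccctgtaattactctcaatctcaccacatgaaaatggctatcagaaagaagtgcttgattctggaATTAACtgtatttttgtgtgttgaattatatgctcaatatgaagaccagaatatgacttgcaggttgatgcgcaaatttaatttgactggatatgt

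The 8 starts differed widely in sequence. The Igdcc4 window held 49 CpG dinucleotides and the Vmn2r3 window 2, against a median of 7 over 32817 mouse promoter windows. The ratio of observed to expected CpG was 0.922 for Cacna1b, 0.918 for Adcy1, 0.912 for Igdcc4, 0.571 for Wnk4, 0.561 for Kif5c, 0.552 for Gldn, 0.486 for Lrrc4 and 0.182 for Vmn2r3. It reached 0.6 in 3 of 8 windows and in 35.8% of all windows. A GC box was present in 6 of 8 windows (Cacna1b, Kif5c, Adcy1, Gldn, Igdcc4 and Wnk4) and in 35.6% of all windows, and a pair of its matches in Adcy1 overlapped each other. An HNF1 half-site, the core recognised by a hepatocyte transcription factor, was found for Kif5c, Lrrc4 and Vmn2r3 and in 7.1% of all windows. Kif5c alone among the 8 held the cyclic AMP response element, found in 1.79% of all windows, and the TATA box letters TATAAA (13.6%). The TATAAA match lay on the opposite strand at position -220 from the start, so it does not mark a TATA promoter. The left and right cores of the REST site were found once each, CAGCACC in Kif5c (7.14% of all windows) and GGACAGC in Gldn (6.56%). An AP-1 site, TGANTCA, was found in Gldn (7.81%), and the TCF/LEF core CTTTGAT in none of the 8 (3.73%). These 5 motifs were also searched on both strands. A match describes letters in the window and not a bound site.

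Recovered depth was 3213696 to 9169116 counts in tumour libraries and 4653422 to 9660584 in non-tumour libraries. A floor of 3 counts, which covers counting error only, therefore stood at 0.311 to 0.934 CPM (counts scaled to a common total per library). The targeted gene, Il17ra, was higher on average in tumours labelled IL17RA-/- than in WT tumours, and overlapped between the labels in non-tumour liver. Those tumours held 42.4 to 55.8 CPM on alcohol and 54.4 to 62.9 on HFD, against 32.3 to 33.8 and 22.9 to 48.5 CPM in WT tumours. Those non-tumour livers held 15.9 to 37.0 CPM on alcohol and 16.6 to 36.1 on HFD, against 16.1 to 42.5 and 25.2 to 27.3 CPM in WT. The genotype groups below follow the label alone. Libraries from 1 animal cannot be recognised from the labels, and p-values reflect variation among libraries, which may be technical. WT HFD tumour replicate 4 stood apart. Its summed hepatocyte markers were the lowest of the 13 tumours (69320 CPM, against a tumour median of 122000 and a non-tumour median of 55500). Alb alone gave 57200 CPM of that library's sum, so the sum mostly follows Alb and does not measure hepatocyte content. The same library's summed cholangiocyte and progenitor markers were 1647 CPM, against a tumour median of 342. Another tumour was higher in these, at 1740 CPM. Krt19 and Epcam added little, at no more than 2.57 and 13.3 CPM in any WT HFD tumour. Non-tumour replicates 3 of HFD labelled IL17RA-/- and 1 of HFD WT carried Afp at 155 and 141 CPM, against a non-tumour median of 7.52 CPM. Results that rest on these libraries are given with and without them.

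Cacna1b (ENSMUSG00000004113, chr2:24603887-24763152, minus strand) encodes the pore of the N-type calcium channel, which triggers transmitter release. In tumours it was at 24.5, 177, 52.7 and 195 CPM on alcohol and 57.9, 178 and 73.2 on HFD where labelled IL17RA-/-, and at 40.04, 47.5 and 13.2 on alcohol and 2.90, 30.8 and 41.2 on HFD in WT. In non-tumour liver it was at 0.321, 0, 0.742, 0.422 and 1.90 CPM and 0.218, 0.860 and 17.2 where labelled IL17RA-/-, and at 1.49, 0, 0.316, 6.50 and 0.918 and 6.16, 0 and 0 in WT, in the same order of diets. Thus 11 of 13 tumours lay above the highest non-tumour library, and 7 of 16 non-tumour libraries held 3 counts or fewer. Within tumours it varied 67.3-fold, more than any other of the 10, but 14.8-fold without WT HFD tumour replicate 4, where Lrrc4 varied more, 26.7-fold. In bulk tissue, fewer cells of a type and less RNA per cell cannot be told apart.

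Adcy1 (ENSMUSG00000020431, chr11:7063489-7178506, plus strand) encodes a calcium- and calmodulin-stimulated adenylyl cyclase of the brain. Tumours held it at 28.3, 66.2, 48.4 and 37.03 CPM on alcohol and 61.4, 81.1 and 50.9 on HFD where labelled IL17RA-/-, and at 34.1, 90.4 and 55.9 on alcohol and 17.1, 34.8 and 48.1 on HFD in WT. In non-tumour liver the lowest, median and highest values were 0.474, 1.68 and 11.2 CPM (n = 16). Every tumour lay above every non-tumour library, the lowest tumour at 17.1 CPM.

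Kif5c (ENSMUSG00000026764, chr2:49619298-49774778, plus strand) encodes the neuron-enriched heavy chain of the conventional kinesin motor. In tumours it was at 90.9, 241, 176 and 139 CPM on alcohol and 309, 194 and 190.4 on HFD where labelled IL17RA-/-, and at 105, 141 and 144 on alcohol and 12.6, 202 and 207 on HFD in WT. In non-tumour liver it was at 1.60, 0.279, 2.67, 2.81 and 11.2 CPM on alcohol and 1.96, 4.30 and 59.1 on HFD where labelled IL17RA-/-, and at 9.48, 0.919, 1.58, 13.4 and 7.74 and 31.4, 3.92 and 1.69 in WT. WT HFD tumour replicate 4, at 12.6 CPM, lay among the non-tumour libraries. The other 12 tumours were all above the highest of them, 59.1 CPM in HFD labelled IL17RA-/- replicate 3.

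Tubb2b (ENSMUSG00000045136, chr13:34126748-34130466, minus strand), a beta-tubulin of the developing brain, did not follow the other 9. Tumour libraries had it at 1.10, 5.62, 4.82 and 1.68 CPM on alcohol and 0.741, 0.764 and 1.35 on HFD where labelled IL17RA-/-, and at 1.26, 6.26 and 2.17 on alcohol and 17.9, 7.34 and 5.81 on HFD in WT. Its highest library was WT HFD tumour replicate 4, where 8 of the other members were at their tumour minimum. The lowest, median and highest non-tumour values were 0, 0.415 and 5.61 CPM (n = 16), and 5 of 13 tumours lay above that maximum. Its level is uncertain, since 36.9% of its 50-base stretches also occur in transcripts of other genes, among them Tubb2a, which was at 379 ± 118 CPM in tumours and 136 ± 102 CPM in non-tumour liver (SD, n = 13 and 16).

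Hid1 (ENSMUSG00000034586, chr11:115347707-115367756, minus strand) encodes a Golgi protein needed for dense core vesicle formation in mouse neuroendocrine cells. In tumours it was at 57.2, 60.5, 63.7 and 57.3 CPM on alcohol and 78.3, 58.2 and 52.3 on HFD where labelled IL17RA-/-, and at 66.2, 72.7 and 81.1 on alcohol and 16.5, 35.2 and 29.8 on HFD in WT. In non-tumour liver the lowest, median and highest values were 0.976, 2.57 and 13.3 CPM. It was the most even of the 10 across tumours, spanning 4.92-fold and 2.72-fold without WT HFD tumour replicate 4, and every tumour lay above every non-tumour library.

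Gldn (ENSMUSG00000046167, chr9:54286486-54341786, plus strand), gliomedin, is the Schwann cell ligand that gathers sodium channels at nodes of Ranvier. Tumours held it at 54.3, 124, 94.7 and 122 CPM on alcohol and 136, 106 and 171 on HFD where labelled IL17RA-/-, and at 108, 129 and 178 on alcohol and 3.37, 128 and 146 on HFD in WT. The lowest, median and highest non-tumour values were 0.558, 6.52 and 37.5 CPM. WT HFD tumour replicate 4 lay below the non-tumour median, and the other 12 tumours, at 54.3 CPM or more, lay above every non-tumour library.

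Igdcc4 (ENSMUSG00000032816, chr9:65101486-65137940, plus strand) encodes a receptor-like protein of the immunoglobulin family related to the netrin receptor DCC. Its tumour levels were 68.4, 75.7, 67.4 and 60.4 CPM on alcohol and 89.2, 75.3 and 117 on HFD where labelled IL17RA-/-, and at 91.2, 59.2 and 74.2 on alcohol and 6.50, 72.3 and 35.8 on HFD in WT. In non-tumour liver the lowest, median and highest values were 0, 1.32 and 14.7 CPM. All tumours but WT HFD replicate 4 were above every non-tumour library.

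Lrrc4 (ENSMUSG00000049939, chr6:28661831-28831747, minus strand) encodes a postsynaptic netrin-G ligand. Tumour libraries had it at 10.5, 8.55, 7.85 and 15.6 CPM on alcohol and 13.2, 17.5 and 13.7 on HFD where labelled IL17RA-/-, and at 5.95, 9.43 and 10.3 on alcohol and 1.28, 9.22 and 0.654 on HFD in WT. In non-tumour liver it lay between 0.562 and 2.98 CPM, a narrower range than in tumours. Replicates 4 and 6 of the WT HFD tumours were within that range. The gene lies inside Snd1 on the opposite strand and shares no exon base with it.

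Vmn2r3 (ENSMUSG00000091572, chr3:64257215-64289709, minus strand) encodes a pheromone receptor of vomeronasal sensory neurons. In tumours it was at 6.74, 3.71, 5.36 and 8.71 CPM on alcohol and 18.8, 12.5 and 12.3 on HFD where labelled IL17RA-/-, and at 17.3, 3.87 and 20 on alcohol and 1.51, 2.57 and 1.53 on HFD in WT. In non-tumour liver 14 of 16 libraries held 3 counts or fewer, and the highest was WT HFD replicate 1 at 2.51 CPM. Of the 120 other Vmn2r genes listed, 95 were at 0 in all 29 libraries and 1, Vmn2r29, reached 1 CPM in at least 3 libraries (this family was looked at after the values of Vmn2r3 were seen). Its 50-base stretches were shared with Vmn2r2, Vmn2r4 and Vmn2r6 in 3.03% of cases, and those genes stayed at or under 0.558 CPM in every library.

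Wnk4 (ENSMUSG00000035112, chr11:101260567-101277409, plus strand) encodes a kinase that controls chloride cotransporters. Tumours held it at 15.95, 20.8, 12.5 and 19.2 CPM on alcohol and 16.3, 23.4 and 21.02 on HFD where labelled IL17RA-/-, and at 13.1, 12.9 and 7.71 on alcohol and 2.20, 5.88 and 6.22 on HFD in WT. The lowest, median and highest non-tumour values were 0.215, 0.926 and 4.49 CPM. All tumours but WT HFD replicate 4 exceeded every non-tumour library. The gene shares 306 exon bases with an antisense gene, Gm11615, and the sources used here do not say whether counting used strand.

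**Figure D1:**
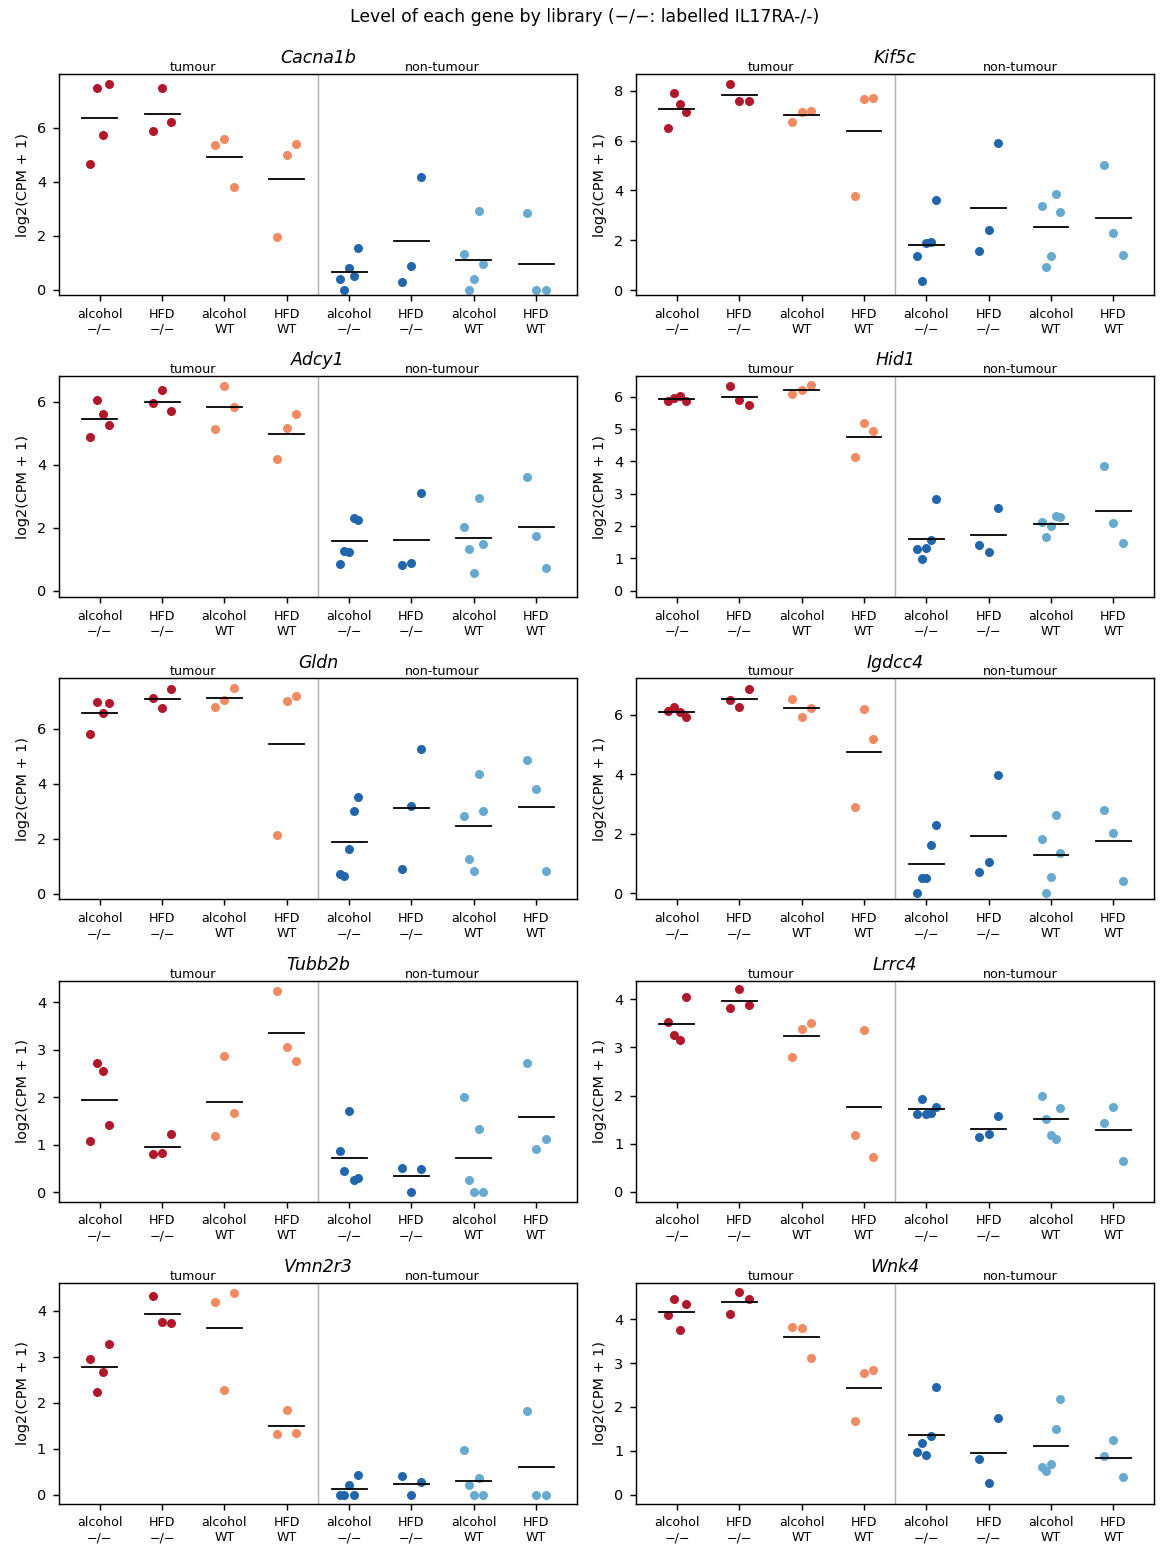
Level of each of the 10 genes, as log2(CPM + 1), in every library of the 8 groups, with tumours left of non-tumour liver. Points are libraries and black lines are means of the log2 values; in 9 panels the tumours sit mostly above the non-tumour libraries, while Tubb2b peaks in WT HFD tumours.

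Per kilobase of exon, the order of median levels in tumours was Gldn at 26.5 CPM per kb, Kif5c at 24.6, Hid1 at 12.7, Igdcc4 at 7.62, Cacna1b at 4.77, Adcy1 at 3.86, Wnk4 at 3.16, Lrrc4 at 2.36, Tubb2b at 0.945 and Vmn2r3 at 0.387. The ranges over the 13 tumours overlapped for every neighbouring pair in this order. Length was the union of all annotated exons of a gene, 17411 bases for Vmn2r3, and not that of the transcript expressed. The last place of Vmn2r3 depends on that length, and the level of Tubb2b is uncertain from shared sequence.

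Averaged over the 4 genotype and diet strata, all 10 genes were higher in tumours, by 4.48 ± 0.49 (SE) on the log2(CPM + 1) scale for Kif5c, 4.42 ± 0.37 for Igdcc4, 4.36 ± 0.46 for Cacna1b, 3.89 ± 0.54 for Gldn, 3.84 ± 0.30 for Adcy1 and 3.75 ± 0.21 for Hid1. These 6 stood between ranks 3 and 14 of 13586 genes. Vmn2r3 followed at 2.64, Wnk4 at 2.57, Lrrc4 at 1.66 and Tubb2b at 1.20, ranks 75, 89, 329 and 706. This scale understates the change of low genes. By limma, with a Benjamini-Hochberg adjusted p under 0.05 as the threshold for a call, 63.6% of all genes were called (36.6% higher, 27% lower), and the median of all genes was 0.089. The 10 genes were chosen on this difference, so their calls carry no test.

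The size of the difference varied among strata. In alcohol tumours labelled IL17RA-/- the members' median log2 difference was 4.1 and all 10 were past the threshold (39.9% of all genes). On HFD with that label the median was 4.11 and 9 were (40.4%), Tubb2b not, at 0.62. In WT on alcohol the median was 3.98 and 9 were (35.7%), again without Tubb2b, at 1.18. In WT on HFD the median was 2.28 and 7 were (15.3%). That count, with 2072 genes called in all, moved with single libraries. It was 2 without tumour replicate 5 (1016 genes in all) or non-tumour replicate 3 (1127), and 4 without tumour replicate 6 (1912) or non-tumour replicate 2 (1060). It was 8 without non-tumour replicate 1 (2127 genes in all), 9 without the 4 doubted libraries described below (2652), and 7 without tumour replicate 4 (2769), where Gldn was past the threshold and Tubb2b was not. With all libraries Gldn (2.28 ± 1.17), Lrrc4 (0.48 ± 0.42) and Vmn2r3 (0.90 ± 0.44) missed it. Without WT HFD tumour replicate 4, the difference in that stratum was 3.94 for Gldn, 0.76 for Lrrc4 and 0.98 for Vmn2r3. Without the 4 doubted libraries it was 5.82 for Kif5c, 5.20 for Cacna1b, 4.78 for Gldn, 4.48 for Igdcc4 and 4.14 for Adcy1. The other members were then at 3.28 for Hid1, 1.99 for Wnk4, 1.91 for Tubb2b, 1.59 for Vmn2r3 and 0.84 for Lrrc4. The median of 2.28 above holds for all libraries only. Over all single libraries left out, Gldn ranged from 1.11 to 3.94 and Lrrc4 from −0.32 (without tumour replicate 5) to 0.995.

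**Figure D2:**
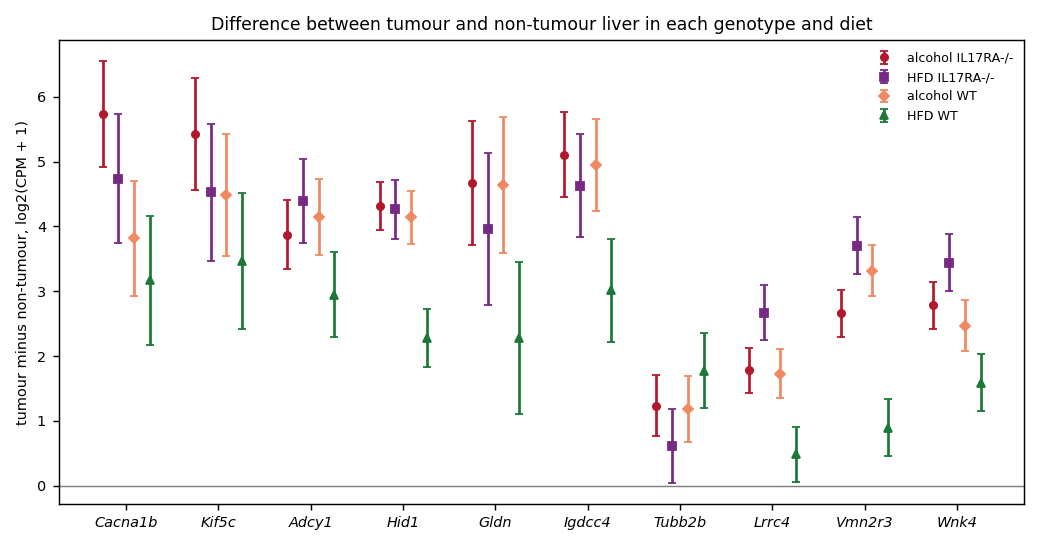
Difference between tumour and non-tumour liver for each gene in each genotype and diet, on the log2(CPM + 1) scale, with bars of 1 standard error. WT on HFD (green triangles) has the smallest difference for 9 genes and the largest for Tubb2b. Without WT HFD tumour replicate 4 its difference is 4.25 for Cacna1b and 4.77 for Kif5c and no longer the smallest for these; the choice of genes used these values.

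Some non-tumour libraries shared the tumour pattern in part. Among the 16, alcohol WT replicate 4 and HFD WT replicate 1 were each among the 4 highest for 8 of the 10 genes, and alcohol labelled IL17RA-/- replicate 5 and HFD labelled IL17RA-/- replicate 3 for 7 each. No other non-tumour library was among the 4 highest for more than 3. The same 4 libraries held the 4 highest Afp levels, 28.97 to 155 CPM against 0.873 to 9.37 in the other 12, and the 4 highest Gpc3 levels, 22.0 to 263 CPM against 0.919 to 8.35. Whether tumour tissue in these samples contributed was not tested. Leaving out 4 libraries that earlier work on these data doubted, WT HFD tumour replicate 4, HFD labelled IL17RA-/- non-tumour replicate 3, WT HFD non-tumour replicate 1 and alcohol labelled IL17RA-/- tumour replicate 5 gave mean tumour differences of 5.34 for Kif5c, 5.08 for Cacna1b, 5.03 for Igdcc4 and 4.1 for Hid1.

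**Figure D3:**
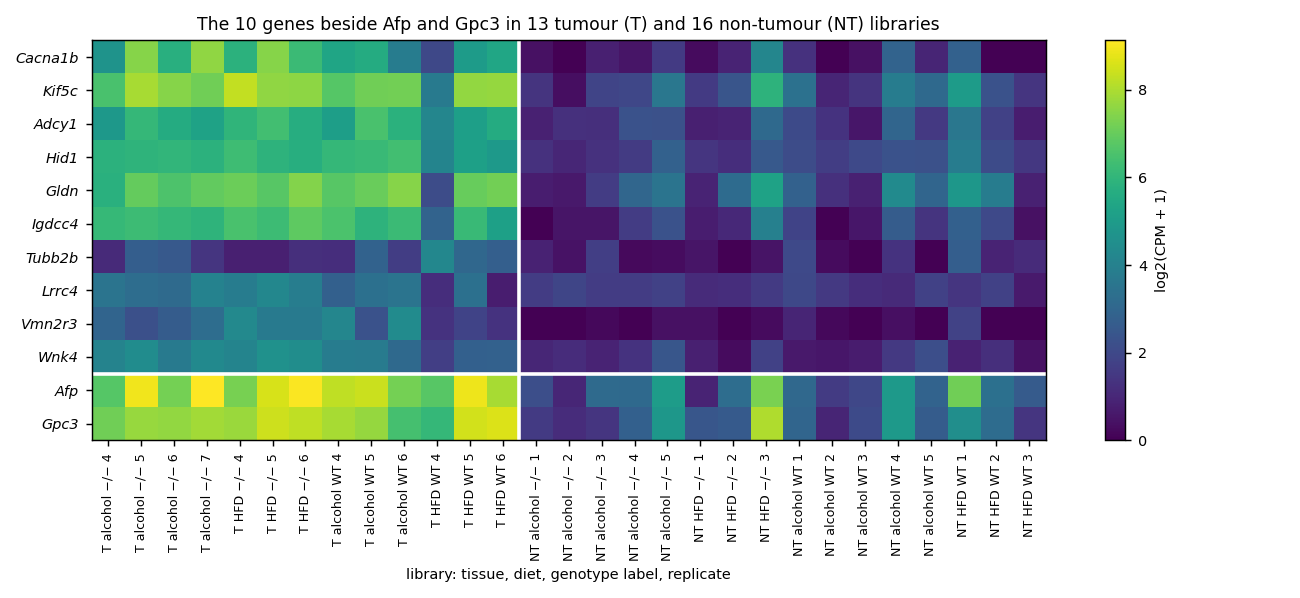
Colour shows log2(CPM + 1) of the 10 genes and, below the white line, of Afp and Gpc3, in 13 tumour libraries (left) and 16 non-tumour libraries (right). Tumour column HFD WT 4 is dark in most rows, and the non-tumour columns with brighter rows, such as HFD −/− 3 and HFD WT 1, are also bright for Afp.

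In HFD tumours 7 of the 10 genes were higher in every library labelled IL17RA-/- than in every WT library, Tubb2b was lower in every one, and Kif5c and Gldn overlapped. The log2 difference was 2.43 ± 0.46 for Vmn2r3, 2.41 ± 0.91 for Cacna1b, 2.21 ± 0.51 for Lrrc4, 1.96 ± 0.32 for Wnk4, 1.78 for Igdcc4, 1.64 for Gldn, 1.44 for Kif5c, 1.23 for Hid1, 1.02 for Adcy1 and -2.41 for Tubb2b. Past the threshold were Hid1, Lrrc4, Vmn2r3, Wnk4 and Tubb2b, 5 of 10, where 1.61% of all genes were. The members were chosen on this contrast, so nothing is read from that count or from the separation of libraries above. The share of all genes separated in the same way was not counted. None was past it without WT HFD replicate 4, without any 1 of the 3 libraries labelled IL17RA-/-, or with a replicate block, fits that called 0 to 3 genes in all. Without WT HFD replicate 5, 6 members and 1174 genes were past it. Without WT replicate 4 the difference was 2.34 for Vmn2r3, 1.93 for Lrrc4, 1.58 for Wnk4, 0.92 for Hid1, −1.96 for Tubb2b, 1.33 for Cacna1b, 0.85 for Igdcc4, 0.62 for Adcy1, 0.14 for Kif5c and −0.021 for Gldn. Of all genes called in this contrast 37.6% were higher, and 67.6% after median-ratio rescaling.

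In alcohol tumours none of the 10 genes was called different between libraries labelled IL17RA-/- and WT by limma, where 0% of all genes were called. An unadjusted p under 0.05 was reached by 0 of the 10 and by 1.97% of all genes. Limma-voom called none of them either. Cacna1b had the largest difference, 1.45 ± 0.85 (adjusted p = 1), followed by Vmn2r3 at -0.84 ± 0.43 and Wnk4 at 0.57 ± 0.30, each at the same adjusted p. The signs split evenly, 5 positive and 5 negative. Hid1, at -0.29 ± 0.22, was lower in all 4 libraries labelled IL17RA-/- than in the 3 WT libraries, whereas in HFD tumours it was higher in all of them. How many of all genes separated in this way was not counted.

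Between alcohol and HFD in WT tumours none of the 10 genes was called. The 3 WT HFD tumours of this comparison also entered the genotype contrast that chose the genes, so the signs and sizes below are not independent of the choice and nothing is read from them as a group. All but Tubb2b had a positive difference, with a median of 1.3 against −0.17 over all genes. Hid1, at 1.46 ± 0.23, had an adjusted p of 0.139, Vmn2r3, at 2.12 ± 0.46, of 0.17 and Wnk4, at 1.14 ± 0.32, of 0.19 by limma. Hid1 and Wnk4 were higher in all 3 alcohol libraries than in all 3 HFD libraries, and so was Vmn2r3. How many of all genes separated in this way was not counted, so nothing is read from it. Tubb2b was at -1.46 ± 0.53. An unadjusted p under 0.05 was reached by 6 members and by 16% of all genes, and 0.00754% of all genes were called. Limma-voom called 0 members. Hid1 and Vmn2r3 were called without alcohol WT replicate 5 (56 of 13207 genes called in all), Hid1 and Lrrc4 without HFD WT replicate 5 (18 of 13141), and Vmn2r3 alone of the members with all 29 libraries in the fit (187 of 13586). Without HFD WT replicate 4 the sign turned for Cacna1b (−0.27), Kif5c (−0.66) and Gldn (−0.014). Median-ratio rescaling moved the median of all genes by 0.15.

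In tumours labelled IL17RA-/- none of the 10 genes was called between alcohol and HFD by limma (0% of all genes). The 3 HFD libraries here also entered the contrast that chose the genes, so the signs, 9 of 10 negative with a median difference of −0.46, are not independent of the choice. Vmn2r3 was at 6.74, 3.71, 5.36 and 8.71 CPM on alcohol and 18.8, 12.5 and 12.3 on HFD, without overlap, a log2 difference of -1.15 ± 0.43 (adjusted p = 1). The share of all genes without overlap here was not counted. No other member had an unadjusted p under 0.05, as 2.21% of all genes did. Limma-voom made 0 calls. Tubb2b was at 0.99 ± 0.49. The diet comparison in WT shares no library with this one, and the difference between them was not tested.

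Within non-tumour liver 9 of the 10 genes could be tested, since Vmn2r3 reached 1 CPM in too few libraries. None of the 9 was called by limma in any of the 4 comparisons of genotype or diet, nor was any other gene (0% in each), and limma-voom called 0. The smallest adjusted p of a member was 0.876, for Tubb2b between alcohol and HFD in WT. An unadjusted p under 0.05 was reached once, by Tubb2b between libraries labelled IL17RA-/- and WT on HFD, at −1.25 on the log2 scale (adjusted p = 0.9), where 3.59% of all genes reached it. The highest difference was 0.84 and the lowest −1.46, for Cacna1b between genotypes and Kif5c between diets. HFD labelled IL17RA-/- replicate 3, at 17.2 CPM of Cacna1b and 59.1 CPM of Kif5c, enters both. Without it the differences were −0.36 for Cacna1b and −0.16 for Kif5c.

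Relatives of the 10 genes, none of them a member, were tested between tumour and non-tumour liver. In calcium channels and vesicle release 7 of 16 tested genes rose in tumours and 3 fell, beside 36.6% higher and 27% lower among all genes, with a list median of 0.14. Cacna1c, the pore of an L-type channel, stood at 16.9 ± 9.14 CPM in tumours and 0.51 ± 0.503 CPM in non-tumour liver (SD, n = 13 and 16; log2 difference 3.35 ± 0.26 SE, limma adjusted p = 5.21e-11). The vesicle fusion gene Vamp1 rose (7.37 ± 2.73 against 2.87 ± 1.37 CPM). Cacna1a, the closest channel relative of Cacna1b, was at 0.693 and 0.658 CPM (adjusted p = 0.9). In kinesin transport and neuronal cytoskeleton 8 of 16 rose and 2 fell, with a median of 0.22. The tubulins Tubb6 (1.78 ± 0.19) and Tubb2a (1.59 ± 0.22) and the growth cone protein Dpysl3 (1.1 ± 0.17) led on the log2 scale. The sister kinesins of Kif5c did not pass: Kif5b was at 131 ± 14.1 CPM in tumours and 121 ± 14.1 in non-tumour liver (adjusted p = 0.0874), and Kif5a at 0.675 and 0.654 CPM (adjusted p = 0.793). Tubb3, the neuronal tubulin, was too low to test, at 0.638 and 0.247 CPM.

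Among adenylyl cyclases 1 of 7 rose and 3 fell, a median of −0.067. Adcy9 was at 32.5 ± 6.75 CPM in tumours against 42.8 ± 6.71, Adcy6 at 30.9 ± 6.41 against 37.7 ± 8.38 and Adcy4 at 4.84 ± 1.05 against 6.08 ± 1.26, the 3 that fell. In dense core vesicle genes 4 of 7 rose and 2 fell. Cpe, the carboxypeptidase that trims peptide hormones, averaged 140 ± 105 CPM in tumours and 8.82 ± 9.04 CPM in non-tumour liver (3.94 ± 0.57 on the log2 scale, limma adjusted p = 1.84e-06). Ica1 (19.1 ± 4.16 against 3.43 ± 1.38 CPM) and Rab3d (56.2 ± 8.04 against 15.3 ± 5.46 CPM) also rose. The granins and prohormone convertases Chgb, Scg2, Scg3, Scg5, Pcsk1 and Pcsk2 stayed below 1 CPM in every tumour.

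In the list of node of Ranvier and axon guidance receptors 6 of 8 rose and 2 fell, with a median of 0.73. The netrin receptor Unc5b (49.5 ± 20.04 against 12.4 ± 6.996 CPM), Cntnap1 (18.4 ± 8.96 against 4.37 ± 2.2 CPM) and the node scaffold Ank3 (73.7 ± 13.2 against 33.1 ± 6.11 CPM) had the largest log2 differences. The axonal partners of Gldn, Nfasc and Nrcam, were below 1 CPM in every tumour, and Igdcc3, the relative of Igdcc4, was listed at 0 in all libraries. In synaptic adhesion molecules 5 of 14 rose and 2 fell: Ptprd fell (125 ± 40.7 against 362 ± 37.6 CPM) and so did Lrrc4c, the sister of Lrrc4 (0.756 ± 0.782 against 1.75 ± 0.621 CPM), while Lrrtm2 rose (9.82 ± 3.04 against 4.59 ± 1.78 CPM). Lrrc4b was at 0.277 CPM or less in every library.

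Of WNK kinases and their substrates 6 of 13 rose and 2 fell. Wnk1 was at 276 ± 44.6 CPM in tumours and 190.1 ± 31.5 in non-tumour liver, and Wnk2 at 1.58 ± 1.09 against 0.292 ± 0.272. The cotransporter Slc12a2, which the pathway regulates, fell (10.2 ± 6.09 against 19.9 ± 3.3 CPM). REST and its corepressors rose in 7 of 10 and fell in 1, with a median of 0.39. Rest itself averaged 71.7 ± 9.35 CPM in tumours and 55.1 ± 5.62 CPM in non-tumour liver (log2 difference 0.36 ± 0.070 SE, limma adjusted p = 7.57e-05), and Rcor1 and Rcor3 rose by 0.65 and 0.64. The members of these lists were chosen with earlier results of these libraries known.

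**Figure D4:**
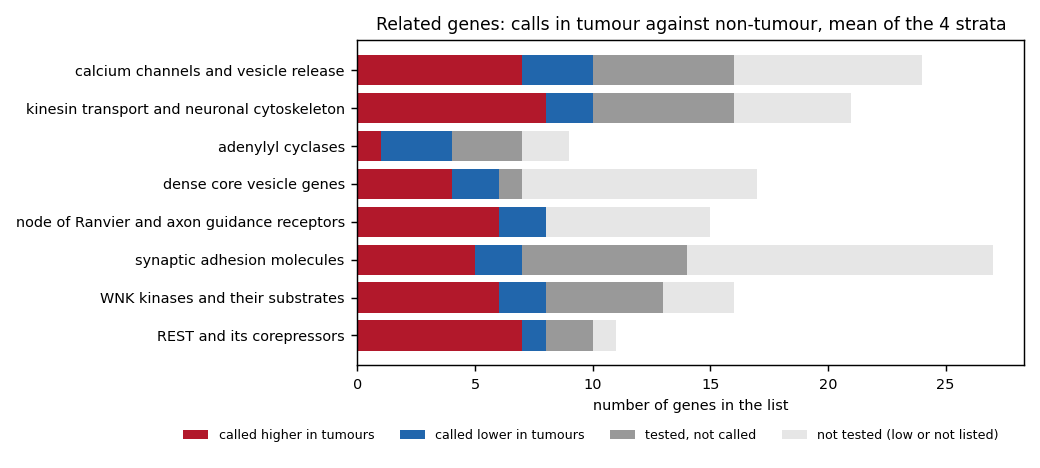
Number of genes in each list of relatives that were called higher (red) or lower (blue) in tumours than in non-tumour liver, tested without a call (grey) or not tested (light grey). In the node of Ranvier and axon guidance list 6 of 8 tested genes are higher and among adenylyl cyclases 1 of 7, beside 36.6% of all genes.

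Markers of neurons were low in both tumours and non-tumour liver. Of the 16 neuron markers, 13 stayed below 1 CPM in every tumour and 5 (Elavl4, Snap25, Th, Dbh and Gap43) were at 0 in every tumour. Their sum was 5.72 to 22.1 CPM in tumours (median 11.8) and 9.07 to 23.5 in non-tumour liver (median 16.6). The 1 neuron marker that could be tested was called lower in tumours, at -0.547 on the log2 scale. Summed Schwann cell and glia markers were at 6.62 to 27.97 CPM in tumours and 7.05 to 15.9 in non-tumour liver, with Sox10, S100b and Gfap below 1 CPM in every library. Of the 4 tested, Mbp (5.73 ± 4.19 against 2.49 ± 1.19 CPM) and Scn7a (1.71 ± 0.844 against 0.588 ± 0.494) were called higher in tumours and Ngfr (3.24 ± 1.55 against 5.45 ± 1.89) lower. Neuroendocrine markers summed to 0.406 to 4.84 CPM in tumours and 0.141 to 2.3 CPM in non-tumour liver, and Ncam1, the one tested, was called higher (1.39 ± 1.25 against 0.471 ± 0.517 CPM). Markers of some liver cell types also differed. Cholangiocyte and progenitor markers ran from 126 to 1740 CPM in tumours and 31.1 to 154 in non-tumour liver, with 8 of 9 tested markers called higher. Stellate cell and fibroblast markers were called higher in 5 of 7 and lower in 2, hepatocyte markers higher in 2 of 8 and lower in 5, and macrophage markers lower in 5 of 6. Endothelial markers were called in 0 of 6, and T and NK cell markers higher in 1 of 5 and lower in 0. The part of these cell types in the members' levels was not tested.

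Genes beside the members on the chromosome were called at shares near those of all genes. Of the 100 genes nearest to the 10, 5 tested genes on each side, 35 were called higher in tumours, 26 lower and 39 neither, beside 36.6% and 27% of all genes, and their median difference was 0.1.

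Across the 13 tumours the 36 pairs of members without Tubb2b had a median Pearson correlation of log2(CPM + 1) of 0.659, and 0.287 without WT HFD replicate 4. The 9 pairs with Tubb2b had −0.677 and −0.443. These are descriptions over libraries that share groups and depth. The genes were chosen partly on the genotype difference in HFD tumours, which are among these 13 libraries. The signs and sizes of the correlations are therefore not independent of the choice, and nothing is read from them. Of 10031 genes compared, Srrm4, a neuronal splicing factor, was the most like Hid1 (r = 0.927, and 0.896 without that library), at 4.06 to 32.7 CPM in tumours and 2.36 to 9.76 in non-tumour liver. Safb2 was the most like Lrrc4 (r = 0.978, and 0.977 without it), at 12.6 to 78.1 CPM in tumours. Rtl1 was among the 3 most like Adcy1 (r = 0.892, and 0.816 without it). Atg4c led for both Cacna1b (0.895) and Wnk4 (0.93), Rdh5 for Igdcc4 (0.956), Snd1, the host of Lrrc4, for Vmn2r3 (0.887) and Stt3b for Tubb2b (0.936). Without WT HFD replicate 4 these values were 0.798, 0.864, 0.755, 0.861 and 0.897, in the same order. Akr1c18 led for both Kif5c (0.943) and Gldn (0.939), values that were 0.665 and 0.537 without WT HFD replicate 4.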

How the data were processed

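Polyadenylated RNA was sequenced from stranded libraries, per the labels' protocols. The submitters' processing notes list RSEM 1.3.0, STAR 2.5.1a and GRCm38 as tools and build; the sources used here give neither their order nor the annotation, filters or strand setting. What the authors deposited is 1 table of CPM, counts scaled to the same total in each of the 29 libraries. Library depth was recovered from the smallest steps of these values: 83.4% to 86.2% of nonzero values were whole counts within 0.002, and the rest were hundredths of a count.

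Groups came from the sample titles; 0 columns were left unused. Symbols and coordinates came from GENCODE (GRCm38), promoters from RefSeq (GRCm38.p6). Log2(CPM + 1) values were tested with limma 3.58.1 (R 4.3.3), with a variance trend, for genes that reached 1 CPM in 3 or more of the fitted libraries, two-sided, with Benjamini-Hochberg adjustment over all genes and a threshold of 0.05. Fits within tumours used 13 libraries, within non-tumour liver 16, and between tissues 29. On simulated data with known changes, 8-fold changes were recovered in 100% of cases for the genotype in alcohol tumours, and 2-fold changes in 22%. The simulation gave all genes the same relative spread and changed only genes above a set mean level. These shares therefore do not carry over to members that were lower or varied more between libraries, such as Cacna1b. Figures were drawn with matplotlib 3.10.9, and tables made with pandas 2.3.3.

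The members, lists and tests were chosen with earlier results of these data known. Named relatives were up to 3 called genes per list with the largest log2 difference and a mean of 1 CPM in the higher tissue, plus fixed relatives of each member; genes like a member were the 3 with the highest Pearson correlation over tumours among those at 5 CPM or more. Same-numbered replicates deviated together only for alcohol against HFD in WT non-tumour liver (correlations 0.352, 0.274 and 0.138), from the data and not the labels; a block changed no member's call there. Alternatives were another pseudocount (0.1), no filter, median-ratio rescaling, other libraries in the fit, a replicate block, leaving out each library or 4 doubted libraries and, added after seeing the data, limma-voom on the recovered expected counts.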

Additional observations from a re-analysis of the deposited data

Results flagged for a closer look

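In groups of 4 or more libraries, 4 values stood far from the others of their group, out of 30 groups of values compared. All 4 were in non-tumour libraries. Groups of 3 libraries were not compared. A chance rate of about 1 in 20 assumes normally distributed values, which CPM need not be. Flags from the same library are not independent. Cacna1b was at 6.5 CPM in alcohol WT replicate 4, with the nearest other library at 1.49 CPM. In alcohol labelled IL17RA-/- replicate 5, Kif5c was at 11.2 CPM (nearest 2.81), Hid1 at 6.21 CPM (nearest 1.97) and Wnk4 at 4.49 CPM (nearest 1.55). These 2 libraries are among the 4 with the highest Afp and Gpc3 of the non-tumour group.

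The genotype difference of Hid1 had opposite signs in the diets, with every library labelled IL17RA-/- below WT in alcohol tumours and above WT in HFD tumours. The alcohol difference minus the HFD difference was −1.52 on the log2 scale. It was not tested, since the HFD contrast chose the gene.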

How the results depend on the processing

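The number of members called stayed at 0 in 6 of the 7 tested comparisons under every alternative run. In those 6 the main fits called 0% of all genes, so the 0 is not particular to the members. In alcohol against HFD in WT tumours the number of members called was 0 to 2 when single libraries were left out. It was 1 with all 29 libraries in the fit. For genes higher in tumours, the replicate block gave 4 for calcium channels, 2 for dense core vesicle genes, 3 for synaptic adhesion molecules and 3 for WNK kinases, while over all genes it gave 3050 against 4968 of 13586 and 9 of the 10 members, without Gldn. Non-tumour libraries were numbered 1 to 5 and tumours 4 to 7, so only numbers 4 and 5 occurred in both tissues. The block therefore largely followed tissue here, and the labels link same-numbered libraries in no other way. Adenylyl cyclases gave 2 with no filter, 2 without the 4 doubted libraries, and 0 to 2 when single libraries were left out. The cause of these changes was not tested.

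Signs of small differences turned, also that of Lrrc4 between tumour and non-tumour in WT on HFD (−0.32 to 0.995). For the genotype in alcohol tumours, Tubb2b was −0.0022 after median-ratio rescaling and −0.22 without the 4 doubted libraries, and ranged over −0.32 to 0.52 when single libraries were left out, as Igdcc4 did over −0.28 to 0.031. For alcohol against HFD in WT tumours the single-library ranges were −0.27 to 1.45 for Cacna1b, −0.66 to 1.3 for Kif5c and −0.014 to 2.52 for Gldn, and without the doubted libraries −0.27, −0.66 and −0.014. In tumours labelled IL17RA-/- they were −0.56 to 0.42 for Cacna1b and −0.18 to 0.11 for Hid1. Depth limits Vmn2r3 and Cacna1b in non-tumour liver, where 14 and 7 of 16 libraries held 3 counts or fewer.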
